A study of Mus musculus with 7 samples.

Results

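The MHC class I and II antigen presentation genes are described here in sorted mouse liver endothelial cells with and without the transcription factor c-Maf. The set is a list of 40 gene symbols, chosen by name, and all 40 have a row among the 52636 genes of the count table. It holds 13 class I chains, 11 genes that supply or load class I peptides, 12 class II genes and 4 co-signalling genes. One group is the Control libraries (n = 3), called control 1 to 3, and the other is the c-Maf KO libraries (n = 4), called KO 1 to 4. Both groups are liver endothelium isolated by fluorescence-activated cell sorting, from which polyadenylated RNA was sequenced. The strain, sex and age of the mice, the way the knockout (KO) was made and the sorting gate were not found in the labels, which also state no treatment. The labels do not tie libraries to separate animals, and p-values then measure only how far these libraries vary, which may be technical.

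Class I molecules carry peptides from the cytosol to the cell surface, where CD8 T cells read them. The peptides are cut by the proteasome, which takes on other catalytic subunits under interferon, are pumped into the endoplasmic reticulum by the TAP transporter and are loaded with the help of tapasin. The loaded molecule is a heavy chain paired with beta-2-microglobulin. Class II molecules carry peptides from endosomes, after lysosomal proteases have cut both the antigen and the invariant chain, and are read by CD4 T cells. Liver sinusoidal endothelium is known for strong endocytosis, for presenting taken-up antigen on class I and for low amounts of class II.

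Maf, the gene targeted, stood at 1664, 2088 and 2147 CPM (read counts scaled to a common library total after correction by trimmed mean of M-values) in controls 1 to 3, and at 28.9, 158.9, 124.5 and 37.7 CPM in KO 1 to 4. It fell by 4.49 on the log2 scale (standard error, SE, 0.576, edgeR adjusted p = 0.000347). Library totals ran from 24772716 to 32960007 counts. Among 15512 genes tested with edgeR, 23% rose and 22.2% fell in the KO at an adjusted p under 0.05, and in 50.3% all KO libraries lay on one side of all controls. The words rose and fell are used only for genes past that threshold. Markers of sinusoidal endothelium, 8 genes that include Stab2 and Clec4g, summed to between 28210 and 31720 CPM in controls and to between 7294 and 11490 CPM in the KO. Of these 6 fell, and Gata4 and Oit3 did not pass. Markers of broad endothelium, 8 genes that include Pecam1 and Cdh5, summed to between 12460 and 13760 CPM in controls and to between 8123 and 10890 CPM in the KO. Of these 4 fell, Egfl7 rose (log2 change 0.57, edgeR adjusted p = 0.00919), and Cdh5, Tie1 and Emcn did not pass. In such bulk samples, fewer cells of a type and less RNA per cell cannot be told apart.

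Promoter sequences of some class I genes are compared before the values of the members are given. RefSeq windows (GRCm38.p6) were at hand for 29 of the 40 genes, and the 250 bases before each RefSeq start site were searched on both strands for 5 short motifs. A run of 29 bases that ends with the interferon response element of class I genes was cut from the 7 windows that hold this element, all on chromosome 17. Each is written on the gene's own strand, with the exact NF-kB core GGGATTCCC and the element (GAANNGAAA, in the orientation TTTCACTTC) in capitals. The H2-D1 run lies before the RefSeq start but inside the GENCODE gene, which starts at 35262730, and GENCODE places it in an untranslated exon.
H2-K1, chr17:34000429-34000457, minus strand: GGGATTCCCcatctccacagTTTCACTTC
H2-D1, chr17:35262924-35262952, plus strand: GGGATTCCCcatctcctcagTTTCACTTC
H2-Q4, chr17:35379444-35379472, plus strand: gggatttcccatctccccagTTTCACTTC
H2-Q6, chr17:35424678-35424706, plus strand: GGGATTCCCcatctccccagTTTCACTTC
H2-Q7, chr17:35439022-35439050, plus strand: gGGGATTCCCatctccccagTTTCACTTC
H2-Q10, chr17:35469914-35469942, plus strand: aggactccccatctccccagTTTCACTTC
H2-M3, chr17:37270113-37270141, plus strand: ttcccccatttcctctgaggTTTCACTTC
Position by position, H2-D1 and H2-Q6 matched the H2-K1 run at 28 of 29 bases and H2-M3 at 14. The runs were cut at the element, so its bases match partly by that choice. Class I chains without the element were not compared. Over 203 aligned bases of the longer windows H2-K1 and H2-D1 were 87.2% identical.

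The whole 250-base windows of H2-K1 and of B2m are shown because these genes encode a heavy chain and its partner, whose ratio separated the groups. Capitals mark the motifs found.
H2-K1, chr17:34000348-34000597, minus strand: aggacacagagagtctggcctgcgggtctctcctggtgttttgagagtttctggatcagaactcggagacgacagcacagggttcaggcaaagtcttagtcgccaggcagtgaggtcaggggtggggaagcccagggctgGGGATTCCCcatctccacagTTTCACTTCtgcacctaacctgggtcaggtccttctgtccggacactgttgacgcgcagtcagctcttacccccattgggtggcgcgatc
B2m, chr2:122147437-122147686, plus strand: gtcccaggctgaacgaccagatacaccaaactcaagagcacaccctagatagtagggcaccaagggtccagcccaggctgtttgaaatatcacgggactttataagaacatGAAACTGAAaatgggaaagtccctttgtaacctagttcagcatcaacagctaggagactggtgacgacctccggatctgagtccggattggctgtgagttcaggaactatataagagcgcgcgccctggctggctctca
GGGATTCCC stood in 4 members' windows and in 0.301% of the 32851 windows of the table. GAANNGAAA stood in 7 members' windows and 6.31% of all windows. The IRF core GAAANNGAA, which can overlap the previous motif, stood in 5 (H2-T22, H2-T23, B2m, Erap1 and Cd274) and in 7.13% of all windows. CTGATTGG, an inverted CCAAT box as in the Y element of class II promoters, stood in 9, among them H2-D1, H2-T23, Tap1, Psmb9, H2-Aa and H2-Eb1, and in 3.83% of all. TGCTGAC, a core sequence bound by Maf proteins, stood in 0 of the 29 members' windows and in 3.81% of all windows. The Tap1 and Psmb9 windows overlap, and the inverted CCAAT box counted for each is the same site, inside the GENCODE Psmb9 gene. A match is a description of letters, and the absence of one says nothing about binding.

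Over the whole set more genes fell than rose in the KO. Rises numbered 5 of the 39 members tested (12.8%, beside 23% of all genes tested), 14 members fell (35.9%, beside 22.2%) and 20 did not pass. The median log2 change was -0.313, against 0.0433 over all genes tested. Groups did not overlap in 20 members (5 higher, 15 lower in the KO), which is near the 50.3% of all genes. Library scaling bears on this split. With upper-quartile factors, which shifted the median of all genes by 0.126, 6 members rose and 12 fell, and with plain library totals, which shifted it by 0.265, 9 rose and 10 fell. Rises were 50.81% of all called genes under the main scaling, 63.43% under the upper quartile and 76.33% under library totals. Without control 3, 1 member rose and 15 fell, without control 2, 2 rose and 11 fell, and without KO 1 or KO 4, 3 and 2 rose while 14 and 12 fell. With lane 5 alone, 2 controls against 3 KO libraries, 1 rose and 15 fell. No value can be had from lane 4, which held a single library of either group. Control 2 and KO 1 held the most macrophage and hepatocyte signal, and without both, an alternative chosen after seeing the data, 2 members rose and 6 fell. Those that kept their call were Cd1d1 and Tap1 upward and H2-T23, H2-T24, Mr1, Tapbp, Cd74 and Lgmn downward.

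**Figure D1:**
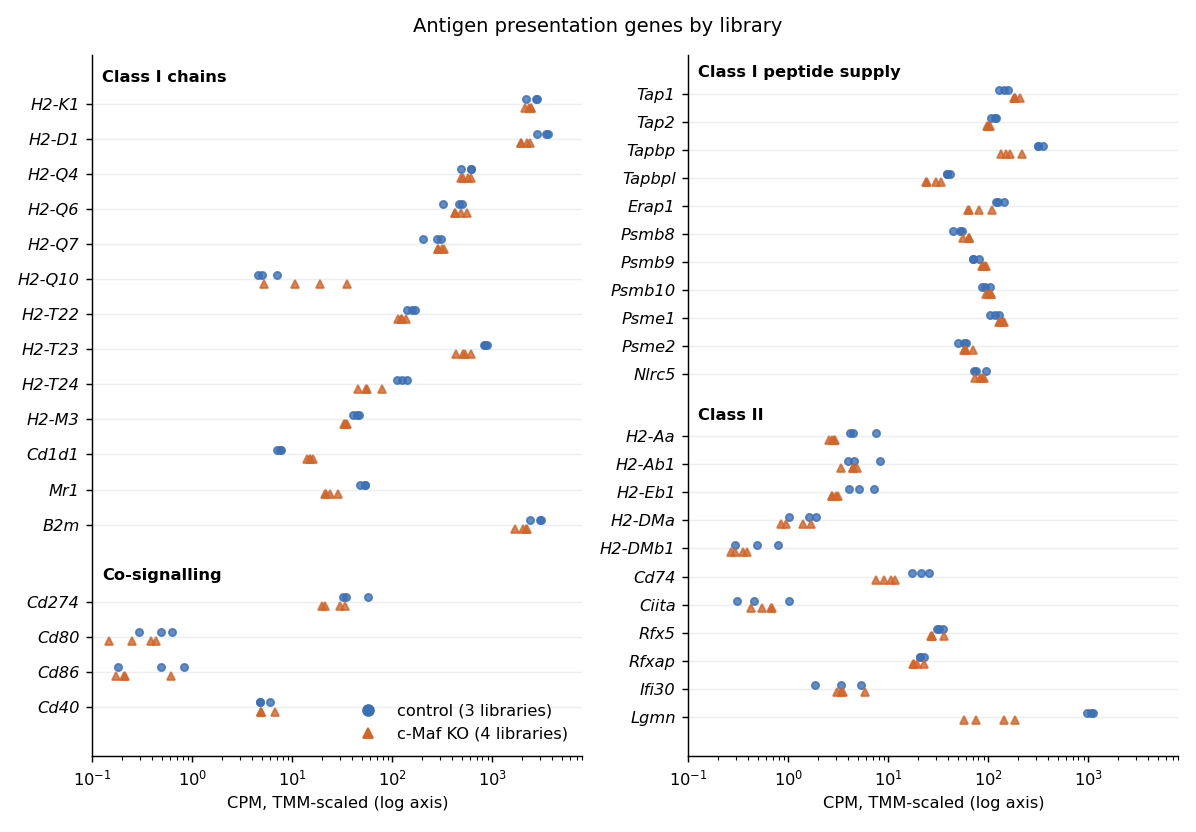
Each point is the CPM (log axis) of a gene in a library, circles for the 3 controls and triangles for the 4 KO libraries, grouped by role. H2-Oa is left out because a log axis cannot show its counts of 0. Lgmn separates the groups most widely, from 981 CPM or more in controls to 186.7 CPM or less in the KO, and the class II chains lie orders of magnitude below H2-K1, H2-D1 and B2m.

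Class I chains formed the most abundant class. Per kilobase of exon, a level that allows comparison between genes, controls held 3275 CPM of B2m, 1267 of H2-D1, 873.9 of H2-K1, 295.5 of H2-T23, 221.0 of H2-Q4 and 204.4 of H2-Q6. H2-Q4 and H2-Q6 differed by less than their spread (SD 29.54 and 44.29, n = 3). In the KO the order began with B2m at 2352, H2-D1 at 821.2 and H2-K1 at 794.9 CPM per kilobase, and the last pair differed by less than their spread (SD 86.39 and 43.89, n = 4). That order rests on merged exon length. Per kilobase of the longest transcript the KO held 1246 ± 68.8 CPM of H2-K1 and 1008 ± 106 of H2-D1 (SD, n = 4), with H2-K1 above. Among the 13 chains 2 rose (15.4%, beside 23% of all genes tested), 7 fell (53.8%, beside 22.2%) and 4 did not pass. Their median log2 change was -0.318.

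The classical heavy chains H2-K1 and H2-D1, which present peptides to CD8 T cells, differed in their calls. H2-D1 (ENSMUSG00000073411, chromosome 17 from 35262730 to 35267499) stood at 3585, 3429 and 2791 CPM in controls and at 1938, 2228, 2378 and 1927 CPM in the KO, so every KO library lay below every control. It fell by 0.63 on the log2 scale (SE 0.15, edgeR adjusted p = 0.00889). H2-K1 (ENSMUSG00000061232, chromosome 17 from 33996017 to 34000347) stood at 2782, 2733 and 2187 CPM in controls and at 2422, 2426, 2344 and 2150 CPM in the KO. Its groups overlapped, and its log2 change of -0.14 (SE 0.139, edgeR adjusted p = 0.446) turned to 0.13 with library totals. The share of 50-base stretches found in another gene was 12.8% for H2-D1, 9.63% for H2-K1 and 13.6% for H2-T23. H2-D1 lost its call with replicates 1 to 3 blocked by replicate number (adjusted p = 0.0875) and without control 2 and KO 1 together (0.0805).

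B2m, the partner of every class I heavy chain, fell as well. Its control libraries held 3075, 2979 and 2395 CPM and its KO libraries 1685, 2162, 2231 and 2013 CPM, with no overlap. The fall of 0.48 on the log2 scale (SE 0.155, edgeR adjusted p = 0.0325) was not called with upper-quartile factors (adjusted p = 0.0672) or library totals (0.222), nor without control 1 (0.113), control 2 (0.115), KO 1 (0.0624), KO 2 (0.0572) or KO 4 (0.0755). Nor was it called with no filter (0.0746), with the replicate block (0.15) or without control 2 and KO 1 together (0.201).

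Ratios of counts within a library do not depend on library scaling. The log2 ratio of H2-K1 to B2m was -0.145, -0.124 and -0.131 in controls and 0.523, 0.166, 0.0712 and 0.0951 in the KO. All 4 KO libraries lay above all 3 controls, by 0.347 between means (exact two-sided permutation p = 0.0571, 0.143 after Benjamini-Hochberg adjustment over 5 ratios). That p is the smallest that 3 against 4 libraries allow, so no ratio can pass 0.05. For H2-D1 to B2m the log2 ratio was 0.215 ± 0.0106 (SD, n = 3) in controls and 0.0685 ± 0.11 (SD, n = 4) in the KO. The groups were barely apart, with KO 1 at 0.2017 almost level with control 2 at 0.2027. The same exact permutation p of 0.0571 rests on that near tie. The ratio of H2-D1 to H2-K1, added after the values were seen and so not tested, was 0.366, 0.327 and 0.352 on the log2 scale in controls and -0.322, -0.122, 0.0210 and -0.158 in the KO. H2-D1 exceeded H2-K1 in every control, and in the KO only KO 3 held slightly more H2-D1 than H2-K1 counts.

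**Figure D2:**
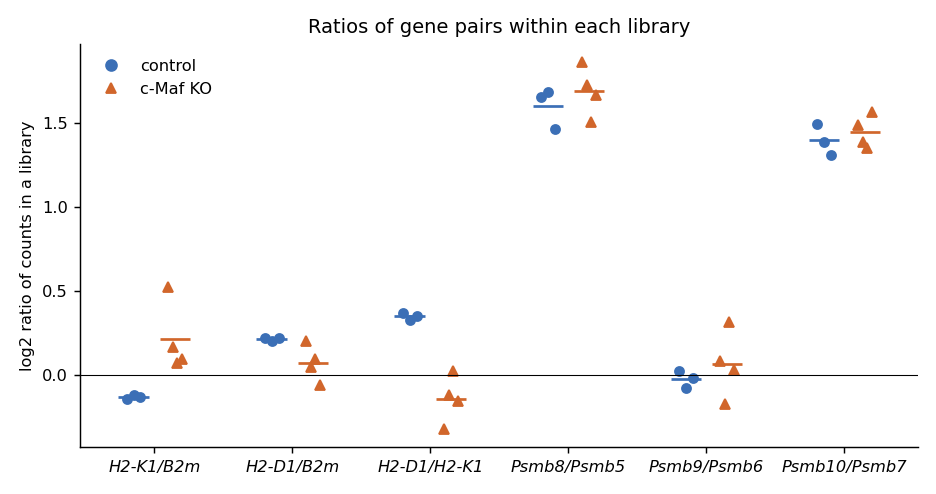
Points are log2 ratios of the counts of gene pairs within each library, circles for 3 controls and triangles for 4 KO libraries, with bars at group means. The 3 ratios on the left separate the groups, while the 3 ratios of immunoproteasome to constitutive subunits on the right overlap. In the KO H2-K1 to B2m is higher, and H2-D1 to B2m and H2-D1 to H2-K1 are lower. For H2-D1 to B2m the gap is very narrow, with KO 1 at 0.2017 and control 2 at 0.2027.

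Among nonclassical chains H2-T22, H2-T23, H2-T24, H2-M3 and Mr1 fell while Cd1d1 rose. H2-T23 encodes Qa-1, which presents leader peptides of other class I chains to NK cell receptors. It stood at 827.9, 893.1 and 839.9 CPM in controls and 438, 531.8, 610.6 and 512.9 CPM in the KO, and fell by 0.71 on the log2 scale (SE 0.129, edgeR adjusted p = 0.00226). H2-T24 went from 111.8, 126.2 and 139.5 CPM to 55.7, 45.6, 78.7 and 54.5 CPM, a fall of 1.10 on the log2 scale (SE 0.169, edgeR adjusted p = 0.000911). In both genes the groups lay well apart and KO 3 was the highest KO library. H2-T22 fell by 0.32 on the log2 scale (edgeR adjusted p = 0.0278), but 34.5% of its 50-base stretches also occur in another gene, mostly its neighbour H2-T10. H2-T22 was not called without control 1 (adjusted p = 0.0762), control 2 (0.124), KO 1 (0.0598), KO 2 (0.0574) or KO 4 (0.0654), nor with upper-quartile factors (0.0958) or library totals (0.622). Nor was it called with no filter (0.0642), with the replicate block (0.112) or without control 2 and KO 1 together (0.227). H2-M3, which presents N-formylated peptides, fell by 0.36 on the log2 scale (edgeR adjusted p = 0.0066) and was called neither with library totals (0.372) nor without control 2 and KO 1 together (0.0736).

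Mr1 and Cd1d1, the class I-like genes that lie outside the MHC, moved in opposite directions. Mr1 presents vitamin metabolites of microbes to MAIT cells. It lies on chromosome 1 from 155127277 to 155146814 and stood at 53.1, 53 and 47.4 CPM in controls and 21.3, 23.9, 28.4 and 21.8 CPM in the KO. This is 2.15-fold lower (log2 change -1.10, SE 0.113, edgeR adjusted p = 0.000107). Cd1d1, which presents lipids to NKT cells, lies on chromosome 3 from 86995834 to 86999441. It stood at 7.10, 7.66 and 7.50 CPM in controls and 16.3, 15.1, 14.2 and 15.2 CPM in the KO, a rise of 2.05-fold (log2 change 1.03, SE 0.107, edgeR adjusted p = 0.000111). The spread within each group was small beside the difference in both genes. For Cd1d1, 19.1% of 50-base stretches also occur in another gene, mostly its copy Cd1d2.

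The Q region genes H2-Q4, H2-Q6 and H2-Q7 did not pass, with log2 changes of -0.06 (SE 0.133), 0.15 (SE 0.170) and 0.20 (SE 0.144). The sign of H2-Q4 turned under upper-quartile scaling and under library totals, that of H2-Q6 turned without control 3 and in lane 5 alone, and H2-Q7 passed upward with library totals (edgeR adjusted p = 0.0176). These genes share between 21.8% and 32% of their 50-base stretches with other genes, so reads may have been divided among them. H2-Q10, a secreted class I chain made chiefly by hepatocytes, stood at 4.55, 5.0 and 7.11 CPM in controls and at 35.5, 5.18, 10.7 and 18.9 CPM in KO 1 to 4. It rose 3.17-fold (log2 change 1.66, SE 0.560, edgeR adjusted p = 0.0373), although KO 2 lay within the control range. Of its 50-base stretches 19% occur in another gene, mostly H2-Q7. Leaving out control 1 (adjusted p = 0.107), control 2 (0.111), control 3 (0.0595), KO 1 (0.069, log2 change 1.06) or KO 4 (0.0766) each ended the call.

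The sum of hepatocyte markers moved with H2-Q10. The 6 markers, all detected, summed to 243.8, 239.2 and 253.6 CPM in controls and to 1125, 291.2, 368.0 and 558.6 CPM in KO 1 to 4, the same order of KO libraries as for H2-Q10. Most of the sum was the albumin gene Alb, at 180.6 to 203 CPM in controls and 228.9 to 879.1 CPM in the KO. Of the 6 markers 4 rose, and Serpina1a and Cyp2e1 did not pass. Cyp3a11, highest in KO 3, and Cyp2e1, highest in KO 4, did not follow that order. Within a library, the log2 ratio of H2-Q10 to the hepatocyte transcript Apoa1 was -1.605 ± 0.0544 (SD, n = 3) in controls and -1.54 ± 0.249 (SD, n = 4) in the KO, with overlap. The same ratio to Alb was -5.11 ± 0.404 (SD, n = 3) and -4.78 ± 0.465 (SD, n = 4), 0.335 higher in the KO and also with overlap. Both ratios were added after the values were seen. The part of hepatocyte RNA in the rise of H2-Q10 was not tested beyond these values.

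Genes that supply and load class I peptides went both ways. The 11 members divide into 3 that rose (27.3%, beside 23% of all genes tested), 3 that fell (27.3%, beside 22.2%) and 5 that did not pass, shares near those of all genes, with a median log2 change of 0.11. Tap1, Psmb8 and Psmb9 rose, and Tapbp, Tapbpl and Erap1 fell. Tap2, Psmb10, Psme1, Psme2 and Nlrc5 did not pass.

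Tapbp encodes tapasin, which bridges TAP and the empty class I chain. Its libraries held 318.1, 356.9 and 315.2 CPM in controls and 135.8, 165.5, 217.2 and 150.6 CPM in the KO, 1.97-fold lower (log2 change -0.98, SE 0.155, edgeR adjusted p = 0.00105). The lowest control stood well above KO 3, the highest KO library. The 5′ part of Tapbp overlaps exons of Zbtb22 on the same strand, and Zbtb22 was much lower, between 47.8 and 51.5 CPM in controls. Zbtb22 also fell (log2 change -0.39, edgeR adjusted p = 0.00835). Tapbpl, which encodes the peptide editor TAPBPR, fell by 0.50 on the log2 scale (SE 0.127, edgeR adjusted p = 0.0112). Tapbpl was called neither with library totals (0.0953) nor without control 2 and KO 1 together (0.0551). Erap1, which trims peptides in the endoplasmic reticulum, stood at 118.5, 144.9 and 125.8 CPM in controls and 64.0, 81.5, 109.7 and 62.5 CPM in the KO. It fell by 0.71 on the log2 scale (SE 0.188, edgeR adjusted p = 0.0139). The call was lost without control 2 (0.0603) and without control 2 and KO 1 together (0.101). Erap1 overlaps Cast on the opposite strand, which also fell (log2 change -0.56, edgeR adjusted p = 0.00892), and reads of overlapping exons cannot be assigned without a known strand setting.

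Tap1, a subunit of the peptide transporter, stood at 144.1, 158.2 and 128.0 CPM in controls and 206.8, 185.5, 182.0 and 184.8 CPM in the KO. All KO libraries lay above all controls, and Tap1 rose by 0.40 on the log2 scale (SE 0.101, edgeR adjusted p = 0.0105). Without control 3 its adjusted p was 0.0541, and in lane 5 alone it was 0.050. Tap1 and Psmb9 overlap in exons on opposite strands, and without a known strand setting reads of those exons cannot be assigned. Its partner Tap2 had a log2 change of -0.19 (edgeR adjusted p = 0.0791) and groups that did not overlap, with 105.7 to 120.8 CPM in controls and 97.5 to 103.1 CPM in the KO. Tap2 did not keep its direction under library totals, where the change was 0.08, and passed downward in lane 5 alone (adjusted p = 0.0241) and with DESeq2 (0.046). Nlrc5, the transactivator of class I genes, stood between 72.2 and 96.0 CPM in controls and between 73.7 and 90.7 CPM in the KO (log2 change 0.03, SE 0.116, edgeR adjusted p = 0.861). A change of Nlrc5 was not detectable within that spread.

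The immunoproteasome subunits rose slightly or did not pass. Psmb9 stood at 80.9, 70.0 and 70.2 CPM in controls and 87.8, 87.5, 93.7 and 95.3 CPM in the KO (log2 change 0.31, SE 0.0837, edgeR adjusted p = 0.0162). Psmb8 stood at 55.2, 51.9 and 45.0 CPM in controls and 63.8, 63.6, 55.8 and 64.1 CPM in the KO (log2 change 0.29, SE 0.0941, edgeR adjusted p = 0.0338). The groups did not overlap in either gene, with KO 3 close to the highest control for Psmb8. Neither call is firm: Psmb9 was lost without control 2 (adjusted p = 0.0887), control 3 (0.076) or KO 4 (0.0504), and Psmb8 without control 2 (0.088), control 3 (0.144), KO 1 (0.0663), KO 2 (0.0795) or KO 4 (0.0777). Psmb10, the remaining immunoproteasome subunit, and the activator genes Psme1 and Psme2 had log2 changes of 0.11, 0.24 and 0.15 and did not pass.

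Set against their constitutive counterparts, the immunoproteasome subunits gave ratios that overlapped between groups. Psmb5, Psmb6 and Psmb7, which encode the replaced catalytic subunits, had log2 changes of 0.20, 0.23 and 0.06 and did not pass. The log2 ratio of Psmb8 to Psmb5 was 1.60 ± 0.121 (SD, n = 3) in controls and 1.69 ± 0.147 (SD, n = 4) in the KO (exact permutation p = 0.343). The ratios of Psmb9 to Psmb6 and of Psmb10 to Psmb7 differed by 0.0869 and 0.0517 on the log2 scale, each at an exact permutation p of 0.514, and all 3 had an adjusted p of 0.514. For Psmb9 to Psmb6 the difference exceeded the control SD of 0.0506 (n = 3) but not the KO SD of 0.202 (n = 4). Of 15 constitutive proteasome genes, which are subunits of the core and the activator gene Psme3, Psma4 rose (log2 change 0.24, edgeR adjusted p = 0.0483) and 14 did not pass, with a median log2 change of 0.15. That rise was 6.67% of these genes, beside 23% of all genes tested. Psma4 lost its call without any of controls 1, 2 and 3 or KO 2, 3 and 4 (adjusted p = 0.102, 0.125, 0.153, 0.137, 0.057 and 0.112).

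Canx, Pdia3 and Calr, chaperones that work beside tapasin, fell. Of 9 genes for folding and loading in the endoplasmic reticulum, 4 fell, 1 rose and 4 did not pass, with a median log2 change of -0.68. The falls were 44.4% of these genes, beside 22.2% of all genes tested, and the rise 11.1%, beside 23%. Canx, the calnexin gene, went from 407.7 ± 28.9 CPM (SD, n = 3) to 211.8 ± 49.4 CPM (SD, n = 4), a log2 change of -0.94 (edgeR adjusted p = 0.00209). Pdia3, the thiol oxidoreductase that is bound to tapasin, fell by 0.77 on the log2 scale (edgeR adjusted p = 0.00163). Calr, which encodes calreticulin, fell by 0.68 (adjusted p = 0.00284), and Lnpep, an endosomal trimming peptidase used in cross-presentation, fell by 0.93 (adjusted p = 0.00309).

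**Figure D3:**
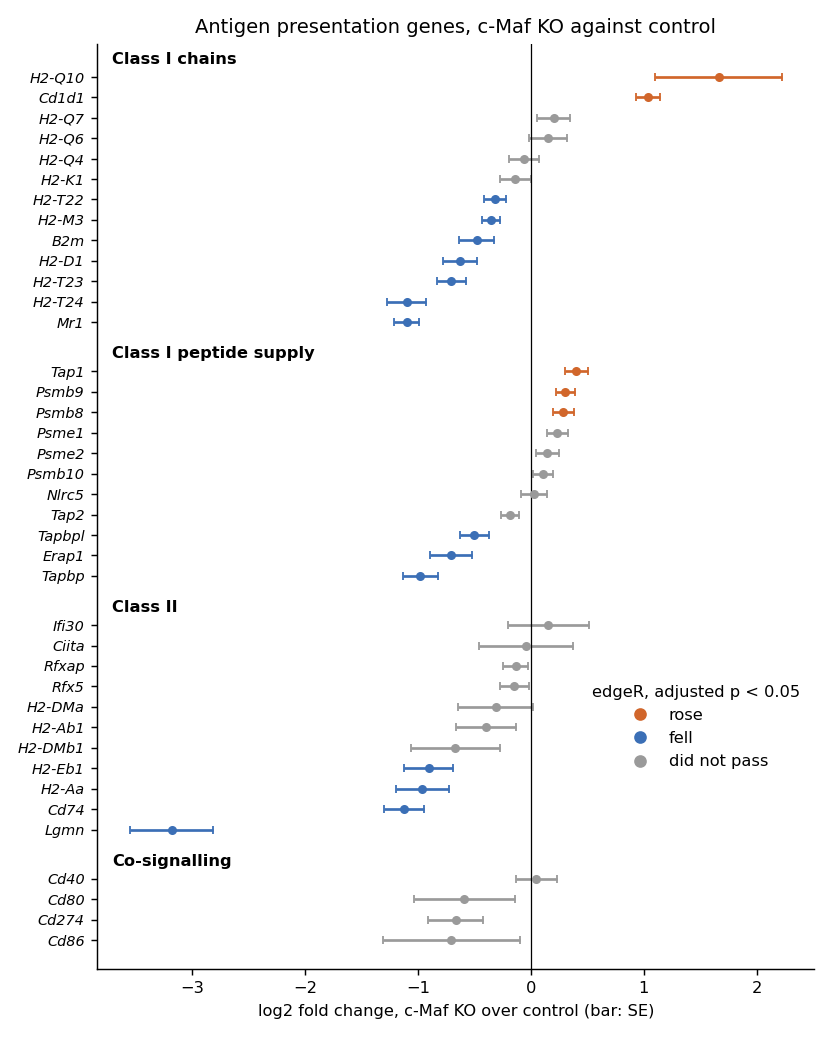
Points are log2 fold changes of the 39 genes tested, KO over control, with bars of 1 SE, and colours give the edgeR call at an adjusted p under 0.05. Lgmn at -3.18 lies far below every other gene of the set, and within peptide supply Tap1 at 0.40 and Tapbp at -0.98 lie on opposite sides of 0.

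Lgmn, Cd74, H2-Aa and H2-Eb1 fell among the class II genes. Of 11 class II members tested, 4 fell (36.4%, beside 22.2% of all genes), 0 rose and 7 did not pass, with a median log2 change of -0.40. At an unadjusted p under 0.05 there was no rise among them either, and DESeq2 called 0 rises. The chain genes H2-Aa, H2-Ab1 and H2-Eb1 reached no more than 8.33 CPM in any library. Cd74, the invariant chain that guides class II molecules to endosomes, stood at 17.4, 25.4 and 21.1 CPM in controls and 10.8, 11.8, 9.05 and 7.46 CPM in the KO, which is 2.18-fold lower (log2 change -1.12, SE 0.179, edgeR adjusted p = 0.0011).

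H2-Aa, H2-Ab1 and H2-Eb1 encode the chains of the class II molecules themselves. H2-Aa stood at 4.48, 7.62 and 4.17 CPM in controls and between 2.54 and 2.94 CPM in the KO, and fell by 0.96 on the log2 scale (SE 0.231, edgeR adjusted p = 0.00897). H2-Eb1 stood at 5.06, 7.25 and 4.04 CPM in controls and between 2.72 and 3.11 CPM in the KO, and fell by 0.91 on the log2 scale (SE 0.214, edgeR adjusted p = 0.00824). Control 2 was the highest library for both, yet every control lay above every KO library. H2-Ab1, the partner chain of H2-Aa, overlapped between groups at 4.59, 8.33 and 3.95 CPM in controls and 4.92, 4.43, 4.42 and 3.33 CPM in the KO (log2 change -0.40, SE 0.268, edgeR adjusted p = 0.253). The log2 ratio of H2-Aa to H2-Ab1, chosen after the values were seen and not tested, ran from -0.128 to 0.078 in controls and from -0.834 to -0.394 in the KO.

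Macrophage markers moved partly with these genes. All 12 markers of macrophages and Kupffer cells were detected, and their sum was 102.3, 335.4 and 167.9 CPM in controls 1 to 3 and 104.7, 228.1, 82.7 and 74.3 CPM in KO 1 to 4, with control 2 highest. Of these markers C1qb fell (log2 change -1.88, edgeR adjusted p = 0.00225), Cd68 rose (log2 change 0.97, edgeR adjusted p = 0.0417) and 10 did not pass. The median log2 change of the 12 markers was -0.717. Within a library, the log2 ratio of Cd74 to C1qb was -0.928 ± 0.349 (SD, n = 3) in controls and -0.173 ± 0.391 (SD, n = 4) in the KO. This ratio, added after the values were seen and not tested, was 0.755 higher in the KO, with overlap. KO 2 held more of the summed markers than controls 1 and 3 and less H2-Aa, H2-Eb1 and Cd74 than both, and 34.7 CPM of its sum came from Marco. Without control 2 and KO 1 together Cd74 still fell (log2 change -1.03, edgeR adjusted p = 0.00921), whereas H2-Aa (log2 change -0.63, edgeR adjusted p = 0.0625) and H2-Eb1 (log2 change -0.62, 0.0706) were not called. Dendritic cell markers summed to between 426.9 and 482.3 CPM in controls and between 332.9 and 389.1 CPM in the KO, carried by Zbtb46, which endothelium also expresses, and Clec9a. Of these markers Clec9a (log2 change -0.53, edgeR adjusted p = 0.00595) and Ccr7 (-1.43, 0.02) fell and Batf3 rose (1.15, 0.0156), while Flt3, Xcr1, Cd209a and Siglech had at most 10 counts in every library. Markers of all leukocytes, Ptprc, Laptm5 and Coro1a, summed to between 13.4 and 24.1 CPM in controls, with control 2 highest, and between 6.95 and 14.3 CPM in the KO. Of these Coro1a fell 1.94-fold (log2 change -0.96, edgeR adjusted p = 0.00369) with no overlap, and Ptprc (log2 change -0.99, adjusted p = 0.0727) and Laptm5 (-0.65, 0.191) did not pass. B cell markers summed to between 28.2 and 31.1 CPM and between 26.2 and 38.4 CPM, and all 7 T and NK cell markers had at most 10 counts in every library. The part of other cells in the class II changes was not tested beyond these values.

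**Figure D4:**
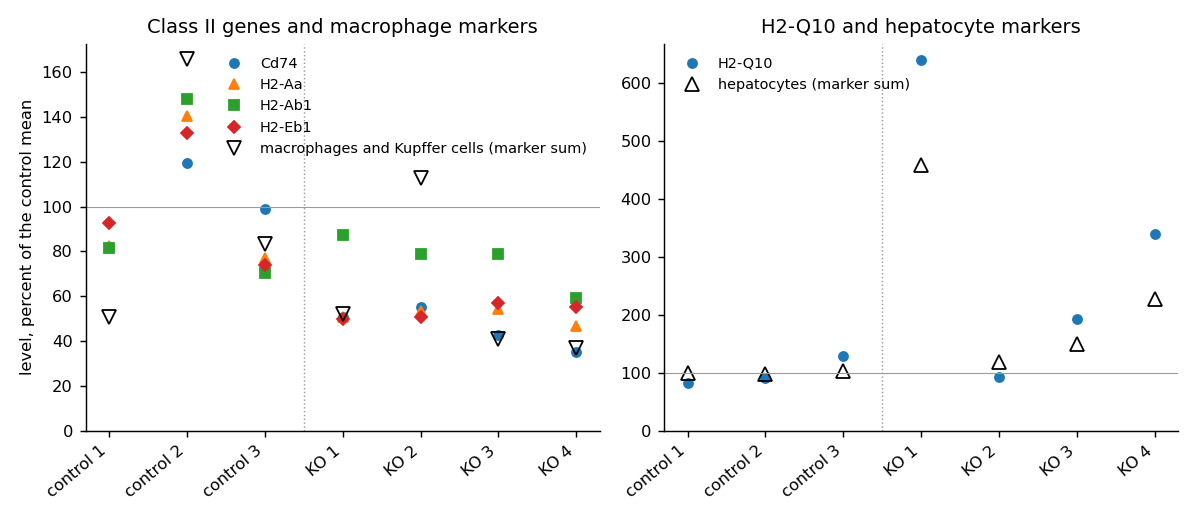
Left, the level of 4 class II genes and the summed macrophage markers in each library, as percent of the control mean. Right, the same for H2-Q10 and the summed hepatocyte markers, where KO 1 stands at 639.8% for H2-Q10 and 458.2% for the markers. Control 2 is highest for all symbols on the left, and KO 2, at 113% of the control mean for macrophage markers, stands at 55.3% for Cd74.

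Lgmn changed more than any other member. It encodes legumain, an asparaginyl endopeptidase of lysosomes that cuts antigens and the invariant chain, and lies on chromosome 12 from 102394084 to 102439813. Controls held 981, 1121 and 1060 CPM, and KO 1 to 4 held 57.3, 186.7, 144.9 and 75.9 CPM, or 5.44%, 17.7%, 13.7% and 7.2% of the control mean. Lgmn fell 9.07-fold (log2 change -3.18, SE 0.368, edgeR adjusted p = 0.000197). KO 2 and KO 3 kept the most Lgmn and also the most Maf, 8.08% and 6.33% of the control mean against 1.47% and 1.92% in KO 1 and KO 4. KO 1 and KO 4 were both lower than KO 2 and KO 3 in 10 of the 14 members that fell (71.4%) and in 64.6% of all 3448 genes that fell.

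The regulators of class II and the remaining members did not pass. Ciita, the class II transactivator, stood between 0.307 and 1.02 CPM in controls and between 0.424 and 0.684 CPM in the KO (log2 change -0.04, SE 0.418, edgeR adjusted p = 0.943), too few counts to show a difference of modest size. Rfx5 and Rfxap, subunits of the RFX complex on class II promoters, had log2 changes of -0.15 (SE 0.125) and -0.13 (SE 0.111). Without KO 1, which was highest, Rfx5 passed downward (log2 change -0.27, edgeR adjusted p = 0.0458). The thiol reductase gene Ifi30 had a log2 change of 0.15 (SE 0.360). H2-DMa and H2-DMb1, which encode the peptide exchanger H2-M, stood at or below 1.92 and 0.791 CPM in every library and had log2 changes of -0.31 (SE 0.328) and -0.67 (SE 0.396). H2-Oa was not tested, with 5 counts over all controls and 5 over all KO libraries, at or under the 3 counts per library taken as a floor (0.0873 to 0.132 CPM) except in control 1.

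Cathepsin genes Ctsl and Ctsd fell with Lgmn, and H2-Ob rose. Of 12 further class II genes and proteases tested (of 15 listed), 5 fell (41.7%, beside 22.2% of all genes), 3 rose (25%, beside 23%) and 4 did not pass, with a median log2 change of -0.51. Ctsl, the lysosomal cysteine protease cathepsin L, fell from 2180 ± 114 CPM (SD, n = 3) to 294.3 ± 114 CPM (SD, n = 4), 7.40-fold lower (log2 change -2.89, SE 0.281, edgeR adjusted p = 8.2e-05). Ctsd, the aspartyl protease cathepsin D, fell 3.70-fold (log2 change -1.89, edgeR adjusted p = 0.000193), and March8, a ubiquitin ligase of surface proteins, fell 1.89-fold (-0.92, 0.000275). H2-Ob, the partner chain of H2-Oa in the modulator H2-O, rose. It stood at 1.46, 1.37 and 1.67 CPM in controls and 11.2, 7.39, 9.17 and 10.9 CPM in the KO, a rise of 6.44-fold (log2 change 2.69, SE 0.203, edgeR adjusted p = 2.54e-05).

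Class I-like genes outside the set changed in both directions. Of 12 listed, 5 had enough counts to test. Of these 2 fell (40%, beside 22.2% of all genes tested) and 3 rose (60%, beside 23%). Fcgrt encodes the neonatal Fc receptor, which recycles IgG and albumin and pairs with beta-2-microglobulin. It stood at 1517, 1460 and 1353 CPM in controls and 121.4, 262.4, 241.5 and 149.8 CPM in the KO, 7.45-fold lower (log2 change -2.90, SE 0.260, edgeR adjusted p = 5.27e-05). Hfe, a regulator of iron uptake that also pairs with beta-2-microglobulin, fell 1.93-fold (log2 change -0.95, edgeR adjusted p = 0.00197). Procr, the endothelial protein C receptor, rose 2.79-fold (log2 change 1.48, edgeR adjusted p = 0.000117), and H2-T10 rose 1.51-fold (0.59, 0.00651). H2-T10, which GENCODE classes as a polymorphic pseudogene, was not called without control 2 and KO 1 together (edgeR adjusted p = 0.0589). Of the 50-base stretches of H2-T22, which fell, 31.25% occur in H2-T10, so reads may have been divided between them.

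No co-signalling member passed, and Cd80, Cd86 and Cd40 were low. The edgeR test called 0 of the 4, and at an unadjusted p under 0.05 Cd274 alone was lower. Cd274 encodes the inhibitory ligand PD-L1 and stood at 32.3, 57.7 and 34.6 CPM in controls and 33.5, 30.3, 21.4 and 19.7 CPM in the KO, with overlap through KO 1. Its log2 change of -0.66 (SE 0.243) had an edgeR adjusted p of 0.0501, and DESeq2 called it (0.0158). It was also called without control 1 (edgeR adjusted p = 0.0378), control 3 (0.0499) or KO 1 (0.0255). Cd80 and Cd86, the ligands of CD28, stood between 0.148 and 0.833 CPM in all 7 libraries, and Cd40, a receptor of helper signals, between 4.73 and 6.72 CPM (log2 change 0.05, SE 0.182). Of 8 further co-signalling genes tested (of 12 listed), 2 rose and 2 fell. These shares, 25% each, were near the 23% and 22.2% of all genes tested. Tnfsf9, the CD137 ligand, rose 6.50-fold from 1.36 ± 0.299 to 8.88 ± 3.41 CPM (SD, n = 3 and n = 4, edgeR adjusted p = 0.000341), and Icosl, the ligand of ICOS, rose 2.23-fold (adjusted p = 0.00136). Vsir, which encodes the inhibitory ligand VISTA, fell 1.75-fold (log2 change -0.81, edgeR adjusted p = 0.0107), and Tnfrsf14, the receptor HVEM, fell 1.52-fold (-0.61, 0.00215).

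Interferon signalling genes, which act upstream of many members, also moved both ways. Of 15 genes for interferon receptors, Janus kinases, downstream transcription factors and their feedback inhibitors, 8 fell, 3 rose and 4 did not pass. The falls were 53.3% of these genes, beside 22.2% of all genes tested, and the rises 20%, near the 23% of all. Their median log2 change was -0.42. Jak1, the kinase shared by interferon receptors, fell 2.21-fold from 1928 ± 111 CPM (SD, n = 3) to 872.4 ± 222 CPM (SD, n = 4) (edgeR adjusted p = 0.00155). Jak2 fell 1.89-fold (adjusted p = 0.000666), the receptor gene Ifngr1 1.41-fold (0.00237) and Irf8 2.11-fold (0.00392). Irf1, a transcription factor known to act on class I promoters, was named after its values were seen. It stood at 234.8, 204.7 and 166.1 CPM in controls and at 686.1, 471.9, 293.0 and 309.0 CPM in the KO, a rise of 2.18-fold (edgeR adjusted p = 0.0128). Genes induced by tissue dissociation, 8 markers of which 4 rose and 0 fell, summed to between 4580 and 6297 CPM in controls and between 7298 and 15110 CPM in the KO, highest in KO 1 as for Irf1. Their part in the rise was not tested.

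By position, 21 of the members lie on chromosome 17 between 33915899 and 37274484, the mouse MHC and its flanks (3.36 Mb). Of 20 tested there 4 rose (20%) and 8 fell (40%), and of 19 elsewhere 1 rose (5.26%) and 6 fell (31.6%). Over all genes tested 23% rose and 22.2% fell. Neighbours within the MHC differed in direction, as for Tapbp, which fell, and Tap1, Psmb8 and Psmb9, which rose. Of the 19 called members, 7 kept call and direction under all 18 alternatives tried: H2-T23, H2-T24, Mr1, Tapbp, Cd74 and Lgmn downward and Cd1d1 upward.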

How the data were processed

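The table deposited by the authors gives whole-number read counts for each Ensembl gene ID, with no scaling. FastQC 0.11.5, STAR 2.7.6a and build GRCm38 are named in the submitters' processing notes. Counting tool, annotation release, strand setting and filters: not given in the sources used here. Per the labels' protocols, an unstranded or a stranded Illumina kit was used and the kit of each library is not stated, so overlapping genes are uncertain, and the H2 genes vary between strains, which the labels do not give. Of 52636 IDs, 52403 matched a symbol in the reference table and 233 did not. Coordinates are from GENCODE release M21 on that build.

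Groups come from the genotype in the labels, and the lane (4 for control 3 and KO 3, 5 for the other 5 libraries) from their descriptions. Counts were filtered with filterByExpr of edgeR 4.0.16 in R 4.3.3 (minimum 10 counts, total 15), scaled by TMM (factors 0.8767 to 0.9211 in controls, 1.043 to 1.135 in the KO) and tested by the quasi-likelihood F-test over 15512 genes with Benjamini-Hochberg adjustment at 0.05. SE was taken as the absolute log2 change over the root of F. Levels per kilobase use merged exons. Floors of 3 counts cover counting error only, since reads carry no molecular identifiers. Replicate libraries all differed by more than sampling noise. Promoter windows are RefSeq's (GRCm38.p6), and shared sequence is the share of 50-base stretches of a gene's transcripts found in another gene, because the read length is not given.

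The members, pathway lists and marker lists were chosen with earlier results of these data known. Every member was reported, and from each pathway list at most 4 of the called genes, lowest p first, plus Psmb5, Psmb6 and Psmb7. Irf1 and single genes of marker lists were named outside this rule, after their values were seen. Alternatives tried were upper-quartile factors, library totals and DESeq2 size factors, 2 other filters, DESeq2 1.42.0, limma-voom (limma 3.58.1), the lane as covariate, lane 5 alone, a replicate block, each library left out and, added after seeing the data, control 2 and KO 1 left out together. The tests were tested on simulated data.
Some genes are not reported here.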

Additional observations from a re-analysis of the deposited data

Results flagged for a closer look

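In groups of 4 libraries, a value whose gap to its nearest neighbour exceeds Dixon's critical share of the group's range was set aside for a closer look. Only the KO group could be examined, because a group of 3 is too small. Over the 40 members, the pathway genes named, the ratios and the summed marker lists, 80 sets of 4 KO values were examined and 7 met this, all of them members, where chance gives about 1 in 20. KO 1 was the highest KO library for Tap1 at 206.8 CPM, where the others held 182.0 to 185.5, for Rfx5 at 36.6 CPM (others 26.9 to 27.7) and for Cd40 at 6.72 CPM (others 4.85 to 4.87). KO 2 was highest for Ifi30 at 5.79 CPM (others 3.06 to 3.50) and for Cd86 at 0.619 CPM (others 0.175 to 0.212). KO 3 was lowest for Psmb8 at 55.8 CPM (others 63.6 to 64.1), and KO 4 was highest for Psme2 at 70.3 CPM (others 57.7 to 59.8).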

How the results depend on the processing

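Falls of all members together ranged from 6 to 16 and rises from 1 to 9 over the alternatives. Leaving out each library in turn gave 1 to 5 rises in all, 1 to 2 among class I chains (main count 2), 0 to 3 in peptide supply (3) and 0 to 1 falls in co-signalling (0). It also gave log2 changes of both signs for Cd40 (-0.082 to 0.162), Ciita (-0.348 to 0.604), H2-Q6 (-0.020 to 0.272), Ifi30 (-0.16 to 0.586) and Nlrc5 (-0.058 to 0.157), none of which was called. DESeq2 size factors, no filter, a minimum of 1 CPM in 3 libraries, DESeq2 and the lane as covariate each gave 1 fall in co-signalling, and the lane and limma-voom gave 1 rise among class I chains. Lane 5 alone gave 1 rise in all, 1 among class I chains and 0 in peptide supply. Library totals gave 6373 rises and 1976 falls over all genes, 9 rises of members, 6 of them in peptide supply, and 4 falls of class I chains. Leaving out control 2 and KO 1 together, which leaves fewer samples, gave 2047 rises and 2143 falls over all genes, and 2 rises and 6 falls of members: 1 rise and 3 falls in class I chains, 1 and 1 in peptide supply and 2 falls in class II. The cause of the other shifts was not tested.

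Directions that turned, all in genes without a call, were with library totals H2-K1 (0.13), H2-Q4 (0.21), Tap2 (0.081), Ciita (0.22), Rfx5 (0.12) and Rfxap (0.13). With upper-quartile factors they were H2-Q4 (0.067) and Ciita (0.084), with limma-voom Ciita (0.087), and with DESeq2 Nlrc5 (-0.0057). In lane 5 alone they were H2-Q6 (-0.010), Nlrc5 (-0.090), Cd40 (-0.0078) and Psmb7 (-0.012), and without control 2 and KO 1 together Cd86 (0.015).

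The replicate block over replicates 1 to 3 of each group gave 2448 rises and 2607 falls over all genes and 2 rises and 11 falls of members, with 1 rise and 4 falls among class I chains and 1 rise in peptide supply. Deviations from the group means of same-numbered libraries correlated at -0.0133, 0.162 and 0.0674 across genes. The other pairs of a control and a KO library ran from -0.176 to 0.0781, so control 2 with KO 2 was highest. With 3 same-numbered pairs these values cannot decide whether the numbers pair the samples.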
